A study of Homo sapiens with 12 samples.

Results

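The genes described here encode the heterogeneous nuclear ribonucleoproteins (symbols beginning with HNRNP) and the serine- and arginine-rich splicing factors (symbols beginning with SRSF). Members were defined by symbol, a choice made with earlier results of these data known. In the expression table, 33 genes of the 20308 were protein-coding and carried such a symbol, 22 HNRNP and 11 SRSF genes. They were measured in C4-2 cells, an established castration-resistant prostate cancer line, in which ALKBH5 was overexpressed (oeALKBH5) or which received an empty vector only (NC). ALKBH5 is an enzyme that strips N6-methyladenosine (m6A) off RNA. There were 3 input libraries of rRNA-depleted total RNA per group, and no further treatment is recorded for the NC cells. The promoter of the construct and whether the cells were a clone or a pool are not given in the sources used here. The labels do not tie the 3 libraries of a group to separate cultures, so the tests below rest on a spread that may be technical. The m6A-immunoprecipitated libraries of the same series were not used here, because their peak lists name no genes.

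Newly made RNA is covered by hnRNPs, which bind short motifs in introns and exons and often keep splice sites from being used, while SR proteins bind exonic enhancers and recruit the spliceosome to nearby sites. The balance between the families helps to set which exons enter an mRNA. HNRNPA2B1 and HNRNPC are also known for their link to m6A, HNRNPA2B1 as a proposed nuclear reader and HNRNPC as a protein whose binding sites open when m6A loosens the local RNA structure. Several SRSF and HNRNP genes keep their own protein level in check through exons that lead to decay of the mRNA, which gene-level values do not show.

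Levels are given as FPKM, which scales fragments by the length of the transcript and the depth of the library, so they can be compared between genes. Differences are oeALKBH5 minus NC on the log2(FPKM + 1) scale, from a limma fit to all 12757 genes averaging at least 0.5 FPKM over the 6 libraries, and a gene was called when its Benjamini-Hochberg adjusted p over all of these was under 0.05. The introduced gene, ALKBH5, was listed at 64.9, 61.1 and 58.2 FPKM in NC and at 80.3, 74.3 and 72.5 FPKM in oeALKBH5 libraries, a difference of 0.30 (SE 0.10) that limma did not call (adjusted p = 0.114). The groups did not overlap for it, and an exact permutation test, two-sided, gave p = 0.1, the lower limit of this test with 3 libraries a group. Whether the value holds all reads of the construct is not known here. Read counts were not used here and the absolute depth is unknown. Relative depths, read from the most frequent ratio between libraries over genes of low value with NC replicate 1 as the reference, were 1.13 and 1.00 for the other NC libraries, against 1.07, 0.785 and 0.829 for oeALKBH5 replicates 1, 2 and 3. A set of 9 prostate luminal markers, among them KLK3 and HOXB13, summed to between 2291 and 2322 FPKM in the NC libraries and between 2294 and 2524 FPKM in the oeALKBH5 libraries. Sums of the marker genes in the table were far lower for fibroblasts (5 genes, DCN and LUM at 0, 3.86 to 12.6 FPKM in NC and 2.17 to 27.7 FPKM in oeALKBH5), immune cells (5 genes, none at 0 throughout, 0.344 to 3.75 and 1.9 to 5.75 FPKM) and endothelium (3 genes, KDR at 0, 0.683 to 1.12 and 0.444 to 0.551 FPKM). In bulk RNA, fewer cells that express a gene and less of its RNA per cell cannot be told apart.

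Of the 33 members, 31 passed the filter, and HNRNPCL1 and SRSF12 were listed at 0 in all 6 libraries. HNRNPA2B1 stood at 48.9% of its NC mean in oeALKBH5 cells, the lowest share among the tested members, and HNRNPA3, HNRNPM and HNRNPA1 were called lower as well. These made 4 of 21 tested HNRNP genes called lower and none called higher, where 2.43% of all tested genes were called lower and 3.02% higher. Among the 5055 tested genes averaging at least 20 FPKM, a level that most members exceed, 5.04% were called lower. Of the 10 tested SRSF genes limma called none, although 6 had an unadjusted p under 0.05, all of them lower in oeALKBH5. No HNRNP gene with an unadjusted p under 0.05 was higher, and 8 were lower. At that unadjusted threshold 10.3% of all tested genes were lower and 11.6% higher, and 16.8% and 12.3% of those of at least 20 FPKM. All 3 oeALKBH5 libraries lay below all 3 NC libraries in 10 HNRNP and 6 SRSF genes, against a background of 13.0% over all tested genes and 19.3% over those of at least 20 FPKM. The reverse order held in 1 member, HNRNPA0, against a background of 15.1%. The difference was negative in 15 of 21 HNRNP and 8 of 10 SRSF genes, with medians of -0.14 and -0.22, whereas it was negative in 47.7% of all tested genes and 54.2% of those of at least 20 FPKM. The median over all tested genes was 0.02.

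**Figure D1:**
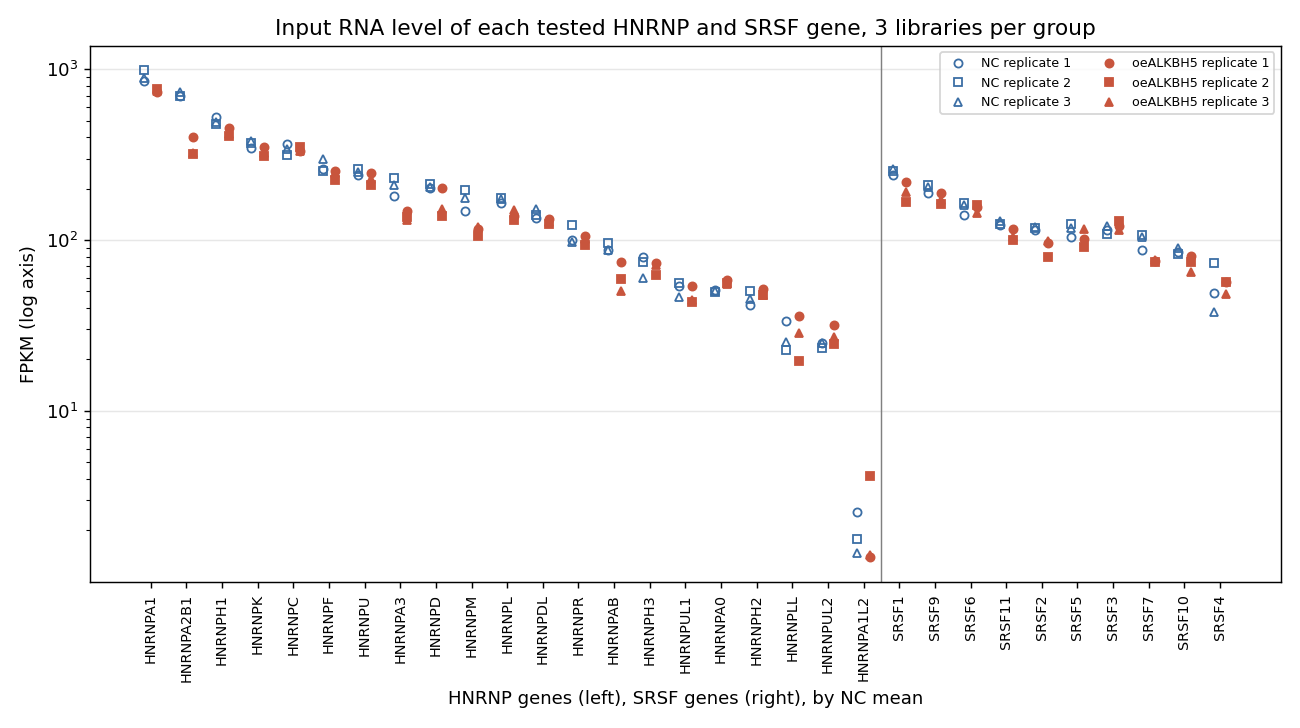
Input RNA level in FPKM (log axis) of the 31 tested HNRNP and SRSF genes, ordered within each family by NC mean, with 1 symbol per library (open blue for NC, filled red for oeALKBH5). HNRNPA1 and HNRNPA2B1 are the 2 highest HNRNP genes in NC, and the oeALKBH5 symbols of HNRNPA2B1 sit between 318 and 399 FPKM, below all NC symbols of that gene.

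The A/B-type hnRNPs, which share a pair of RNA recognition motifs and a glycine-rich tail, had 3 of 8 tested members called lower. The background is 2.43% over all tested genes and 5.04% over those of at least 20 FPKM. HNRNPA2B1 encodes the A2 and B1 proteins, which act in splicing, in mRNA transport and in the sorting of microRNAs. It was listed at 692.6, 699.7 and 734 FPKM in NC replicates 1, 2 and 3 and at 399, 318 and 323 FPKM in oeALKBH5 replicates 1, 2 and 3. The groups lay far apart, and oeALKBH5 replicate 1 stood nearest to the NC libraries. The difference was -1.04 (SE 0.09, 95% interval -1.24 to -0.84, limma adjusted p = 5.6e-04). It was called in all 13 alternatives tried, with values from -1.14 to -0.98 when 1 library was left out.

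HNRNPA1, the close relative that represses many exons and promotes the PKM2 form of pyruvate kinase, had the highest level of the members. Its values were 852, 985 and 886 FPKM in NC against 736, 769 and 745 FPKM in oeALKBH5 libraries. The 3 oeALKBH5 libraries were close together and all below NC, with 82.6% of the NC mean. This difference of -0.27 (SE 0.06, limma adjusted p = 0.0417) was no longer called without NC replicate 2 (adjusted p = 0.101) or 3 (0.125), or without oeALKBH5 replicate 1 (0.109), 2 (0.0902) or 3 (0.127). The gene name table used lists 74 pseudogene copies of HNRNPA1, none of which is in the expression table, so how their reads were counted is unknown. HNRNPA1L2, a near-identical copy of HNRNPA1, was far lower, with 2.56, 1.77 and 1.48 FPKM in NC against 1.39, 4.18 and 1.43 FPKM in oeALKBH5 libraries, and the split of reads between the copies is uncertain.

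HNRNPA3, a further A/B-type protein found in RNA transport granules, went from 180, 230.0 and 209 FPKM in NC to 148, 137 and 131 FPKM in oeALKBH5 libraries. Its groups did not overlap, and the oeALKBH5 mean was 67.0% of the NC mean. The difference was -0.57 (SE 0.10, limma adjusted p = 0.0159), and the call was lost without NC replicate 2 (adjusted p = 0.0568) or 3 (0.0818), or without oeALKBH5 replicate 2 (0.0642) or 3 (0.0661). It has 16 named pseudogene copies, likewise absent from the expression table.

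HNRNPAB, which also binds CArG-box DNA, had a similar size of difference without a call. Its values were 87.8, 95.8 and 87.1 FPKM in NC against 73.9, 58.9 and 50.1 FPKM in oeALKBH5 libraries, so that the groups did not overlap and oeALKBH5 replicate 1 again stood nearest to NC. The difference was -0.57 (SE 0.14, limma adjusted p = 0.051), and it was called without oeALKBH5 replicate 1 (adjusted p = 0.0246). HNRNPD, known as AUF1 for its binding to AU-rich elements that mark mRNAs for decay, was listed at 202, 212 and 205 FPKM in NC and at 202, 138 and 153 FPKM in oeALKBH5 libraries. Here oeALKBH5 replicate 1, at 201.8 FPKM, lay just below the lowest NC library, at 202.2 FPKM, and the other 2 were well below. The gene was not called with all libraries (limma adjusted p = 0.156) and was called without oeALKBH5 replicate 1 (adjusted p = 0.0255, difference -0.51 in place of -0.35). Its neighbour and relative HNRNPDL differed by -0.14 (SE 0.08, limma adjusted p = 0.354).

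HNRNPA0, a single-exon gene whose protein stabilises cytokine mRNAs, stood on the other side. It was listed at 51.1, 49.6 and 50.2 FPKM in NC and at 58.2, 55.9 and 55.6 FPKM in oeALKBH5 libraries. The groups did not overlap, but the difference of 0.17 (SE 0.09, 95% interval -0.05 to 0.38) was not called (limma adjusted p = 0.342).

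**Figure D2:**
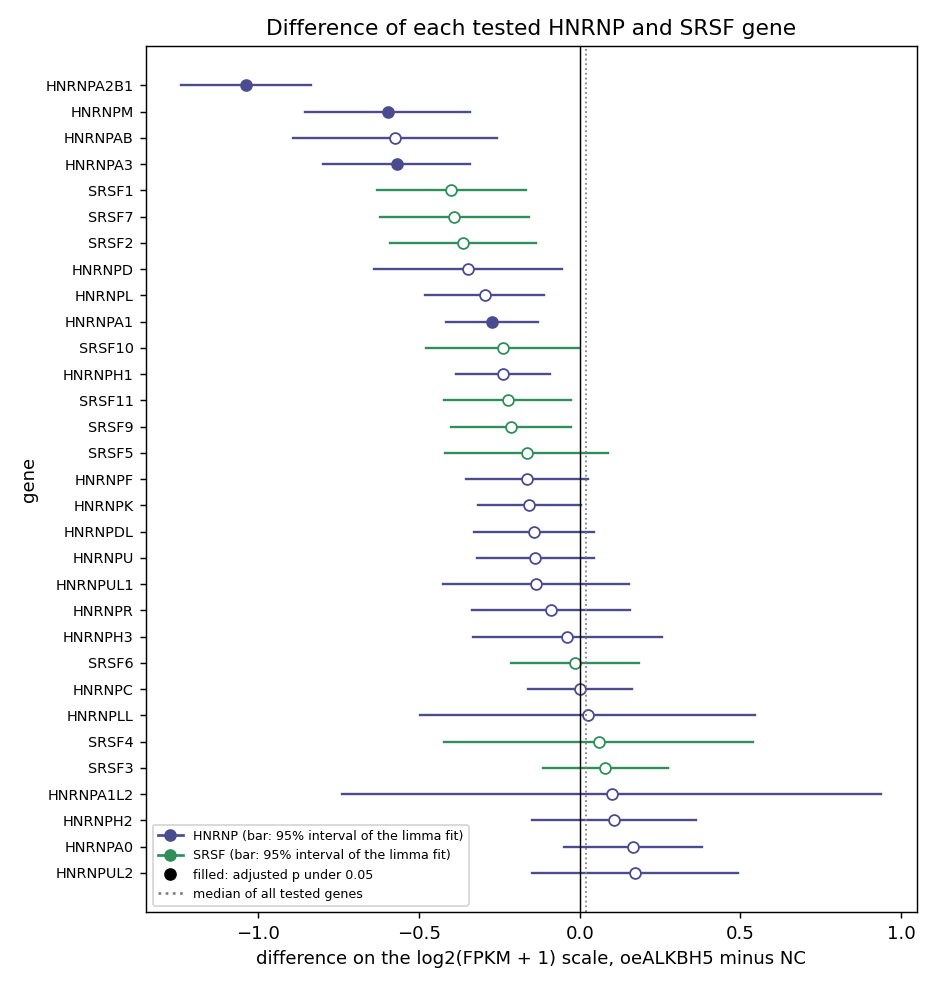
Difference between oeALKBH5 and NC on the log2(FPKM + 1) scale for the 31 tested members, with the 95% interval of the limma fit (blue for HNRNP, green for SRSF, filled where the adjusted p was under 0.05) and the median of all tested genes as a dotted line. HNRNPA2B1 lies apart at -1.04, the next 3 genes lie between -0.60 and -0.57, and HNRNPC lies at 0.00.

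The promoter of HNRNPA2B1 is shown because the gene next to it was lower too. Whether this region plays a part in either difference was not tested. CBX3, which encodes the heterochromatin protein HP1 gamma, starts 697 bases away on the opposite strand in the RefSeq table (GRCh38.p14). It was listed at 279, 297 and 306 FPKM in NC and at 235, 219 and 215 FPKM in oeALKBH5 libraries, a difference of -0.40 (SE 0.07, limma adjusted p = 0.0154). Its groups did not overlap, and its call was lost without NC replicate 2 (adjusted p = 0.0589) or 3 (0.0827), or without oeALKBH5 replicate 2 (0.0541) or 3 (0.0656). HNRNPA2B1 stood at 2.48, 2.36 and 2.40 times the level of CBX3 in the NC libraries and at 1.70, 1.45 and 1.5 times in the oeALKBH5 libraries. The log2 ratio thus differed by -0.64 (SE 0.07, exact permutation p = 0.1, the smallest possible), one of 5 ratios compared, chosen after the values were seen, for each of which the adjusted p was also 0.1. On its other side, NFE2L3 differed by 0.08 (SE 0.20, limma adjusted p = 0.859). Of the nearest protein-coding neighbours of the other called members, MTX2 and NFE2L2 beside HNRNPA3, MARCHF2 beside HNRNPM and CBX5 beside HNRNPA1 were tested. None of these 4 was called by limma, with adjusted p from 0.201 to 0.987. CBX5 was still lower without overlap, an order that 19.3% of tested genes of at least 20 FPKM had. It was listed at 33.2, 40.5 and 35.0 FPKM in NC and 27.0, 28.2 and 31.4 FPKM in oeALKBH5 libraries. Its difference was -0.32 (SE 0.13), while MTX2 and NFE2L2 differed by -0.04 and 0.00 and MARCHF2 by 0.39.

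The 250 bases before the start of 3 called members and of HNRNPC, the abundant member whose means were closest, are given from RefSeq (GRCh38.p14), 5′ to 3′ on the strand of the gene. Capitals mark matches on either strand to 5 short motifs: GCCGCC and CCAAT (the core of the NF-Y box), then CACGTG (an E-box), TTCGCG (part of many E2F sites) and GGAAGT (an ETS core).
HNRNPA2B1 (chr7:26200747-26200996, minus strand): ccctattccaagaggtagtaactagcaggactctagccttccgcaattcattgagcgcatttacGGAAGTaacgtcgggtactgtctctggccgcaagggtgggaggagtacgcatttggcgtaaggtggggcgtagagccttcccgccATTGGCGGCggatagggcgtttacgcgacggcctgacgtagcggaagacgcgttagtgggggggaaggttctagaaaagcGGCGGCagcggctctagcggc
HNRNPA3 (chr2:177212544-177212793, plus strand): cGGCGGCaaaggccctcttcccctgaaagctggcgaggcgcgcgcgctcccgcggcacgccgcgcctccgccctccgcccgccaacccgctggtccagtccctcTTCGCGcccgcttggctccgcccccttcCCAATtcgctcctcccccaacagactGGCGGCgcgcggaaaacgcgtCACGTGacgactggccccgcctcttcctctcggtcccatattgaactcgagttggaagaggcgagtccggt
HNRNPM (chr19:8444725-8444974, plus strand): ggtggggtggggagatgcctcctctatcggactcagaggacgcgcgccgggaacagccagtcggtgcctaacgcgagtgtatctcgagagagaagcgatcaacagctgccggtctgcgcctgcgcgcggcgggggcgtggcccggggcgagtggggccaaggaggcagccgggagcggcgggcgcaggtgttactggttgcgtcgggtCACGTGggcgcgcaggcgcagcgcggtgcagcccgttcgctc
HNRNPC (chr14:21269443-21269692, minus strand): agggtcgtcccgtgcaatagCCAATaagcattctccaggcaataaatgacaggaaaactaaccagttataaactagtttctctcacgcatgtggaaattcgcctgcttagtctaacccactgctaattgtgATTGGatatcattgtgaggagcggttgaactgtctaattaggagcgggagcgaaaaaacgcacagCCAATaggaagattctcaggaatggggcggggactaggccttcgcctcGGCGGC
HNRNPA2B1 held 2 matches to GCCGCC, 1 to CCAAT and 1 to GGAAGT. HNRNPA3 held 2 matches to GCCGCC and 1 each to CCAAT, to CACGTG and to TTCGCG, and HNRNPM held 1 match, to CACGTG. HNRNPC held 3 matches to CCAAT and 1 to GCCGCC. No motif of the 5 was thus present in all 3 called members shown. Over the 42 promoter windows of 29 tested members that were matched (HNRNPA1 and SRSF2 were not), GCCGCC was found in 47.6%, CCAAT in 45.2%, GGAAGT in 26.2%, TTCGCG in 21.4% and CACGTG in 16.7%. Over all 35116 windows of the table the shares were 29.2%, 32.0%, 19.5%, 5.1% and 6.3%. These windows were not limited to genes of similar level, a gene can hold several windows, and the shares were not tested. CTTTCT, searched on the gene's strand only in the 50 bases after the start, was found in 2.4% of member windows and 2.1% of all. These matches describe letters in a window and were not tied to binding.

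HNRNPC, which binds uridine runs and guards introns against the use of Alu elements as exons, is the C-type member that was listed above 0. Its values were 363, 313 and 342 FPKM in NC against 332, 352 and 334 FPKM in oeALKBH5 libraries, and the groups overlapped fully. The difference was 0.00 (SE 0.07), and its 95% interval ran from -0.16 to 0.16 (limma adjusted p = 0.995). HNRNPA2B1 was listed at 1.91, 2.24 and 2.14 times the level of HNRNPC in NC libraries and at 1.20, 0.903 and 0.970 times in oeALKBH5 libraries. In NC cells HNRNPA2B1 was thus listed as the more abundant of these m6A-linked members in every library, while in oeALKBH5 cells that held in 1 library of 3. HNRNPC has 9 named pseudogene copies, none of them in the expression table, and HNRNPA2B1 has 0, so this ranking between genes is uncertain. The log2 ratio differed by -1.04 (SE 0.14, exact permutation p = 0.1, the smallest possible). Since HNRNPC itself differed by 0.00, this ratio restates the difference of HNRNPA2B1. Against HNRNPA1 and HNRNPA3, which were themselves lower, the log2 ratio of HNRNPA2B1 differed by -0.77 (SE 0.14) and -0.47 (SE 0.12). Each had an exact permutation p of 0.1, again the smallest possible, and these ratios too were chosen after the values were seen.

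The F/H-type hnRNPs bind runs of guanines, and none of the 4 was called by limma. HNRNPH1, the most abundant, was listed at 522, 481 and 493 FPKM in NC and at 450.1, 404 and 415 FPKM in oeALKBH5 libraries. All oeALKBH5 libraries were below NC, with a difference of -0.24 (SE 0.06, limma adjusted p = 0.0722). HNRNPF differed by -0.16 (SE 0.08, limma adjusted p = 0.295). Its groups only just did not overlap, with oeALKBH5 replicate 1 at 254.0 FPKM and NC replicate 2 at 254.3 FPKM. HNRNPH3 and HNRNPH2 overlapped between groups, with differences of -0.04 (SE 0.13) and 0.11 (SE 0.11). HNRNPH2 shares sequence with the readthrough gene RPL36A-HNRNPH2, which was listed at 1.76 and 9.03 FPKM in oeALKBH5 replicates 1 and 3 and near 0 elsewhere, so that the value of HNRNPH2 is uncertain.

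HNRNPM, which binds GU-rich sequence and takes part in splicing choices linked to epithelial and mesenchymal states, was the fourth member called lower. It was listed at 147, 197 and 177 FPKM in NC and at 117, 106 and 119 FPKM in oeALKBH5 libraries. NC replicate 1 stood nearest to the oeALKBH5 libraries, and the groups did not overlap. The difference was -0.60 (SE 0.11, limma adjusted p = 0.0217), and the call held without NC replicate 1 (adjusted p = 0.0127) but not without NC replicate 2 (0.0684) or 3 (0.0992), nor without oeALKBH5 replicate 1 (0.0621), 2 (0.0791) or 3 (0.0602).

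HNRNPL, which binds CA repeats, was listed at 164, 177 and 173 FPKM in NC and at 139, 130.2 and 150.2 FPKM in oeALKBH5 libraries. The groups did not overlap, and the difference of -0.29 (SE 0.08) was not called (limma adjusted p = 0.0754). HNRNPK, a KH-domain protein that binds cytidine-rich RNA and DNA, overlapped between groups, with 348, 371 and 378 FPKM in NC against 352, 310 and 323 FPKM in oeALKBH5 libraries (difference -0.16, SE 0.07, limma adjusted p = 0.24). HNRNPR and HNRNPLL also overlapped, with differences of -0.09 (SE 0.11) and 0.03 (SE 0.23).

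The U-type members, which bind RNA and chromatin as scaffold attachment factors, all overlapped between groups. HNRNPU, the most abundant of them, was listed at 242, 261 and 250 FPKM in NC and at 248, 209 and 228 FPKM in oeALKBH5 libraries (difference -0.14, SE 0.08, limma adjusted p = 0.353). HNRNPUL1 differed by -0.14 (SE 0.13) and HNRNPUL2 by 0.17 (SE 0.14). HNRNPUL2 overlaps the readthrough gene HNRNPUL2-BSCL2, which is not counted as protein-coding in RefSeq and so is no member. The readthrough was listed at 19.8, 26.7 and 23.6 FPKM in NC and at 14.7, 10.7 and 15.5 FPKM in oeALKBH5 libraries, a difference of -0.74 (SE 0.19, limma adjusted p = 0.0582). The sum of both was 47.8 ± 2.70 FPKM in NC against 41.5 ± 5.79 FPKM in oeALKBH5 libraries (mean ± SD, n = 3 each). How reads were split between the overlapping genes is unknown, so the opposite signs of HNRNPUL2 and its readthrough are uncertain.

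Of the classical SR proteins, limma called none of the 8 tested, and 4 were lower at an unadjusted p under 0.05. The background there is 10.3% over all tested genes and 16.8% over those of at least 20 FPKM. SRSF1, the founding SR protein and a known oncogene product, had the highest level of the SRSF genes in NC cells. It was listed at 241, 253 and 261 FPKM in NC and at 219, 166 and 190 FPKM in oeALKBH5 libraries. The groups did not overlap, and the mean in oeALKBH5 was 76.2% of that in NC. The difference was -0.40 (SE 0.10, limma adjusted p = 0.0591), and it was called without oeALKBH5 replicate 1 (adjusted p = 0.0324).

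SRSF7, which also acts in mRNA export and in the choice of polyadenylation site, was listed at 86.8, 107 and 104 FPKM in NC and at 75.0, 74.3 and 76.4 FPKM in oeALKBH5 libraries. The oeALKBH5 libraries were within a narrow band below NC. The difference of -0.39 (SE 0.10, limma adjusted p = 0.0645) was called without NC replicate 1 (adjusted p = 0.0446). SRSF2, the factor known as SC35, was listed at 114, 117 and 119.6 FPKM in NC and at 96.0, 79.5 and 98.2 FPKM in oeALKBH5 libraries. It too did not overlap between groups and was not called (difference -0.36, SE 0.10, limma adjusted p = 0.0758). SRSF9 differed by -0.21 (SE 0.08, limma adjusted p = 0.174), with no overlap.

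The other classical SR genes overlapped between the groups. SRSF3, a small SR protein that also acts in mRNA export and has been tied to the m6A reader YTHDC1, was listed at 115, 109 and 121 FPKM in NC and at 121, 129 and 114 FPKM in oeALKBH5 libraries. Its difference of 0.08 (SE 0.09) had a 95% interval from -0.11 to 0.27, and the 95% interval of SRSF7, from -0.62 to -0.16, lay wholly below it. The difference between SRSF3 and SRSF7 was not tested. SRSF6 differed by -0.01 (SE 0.09), SRSF5 by -0.16 (SE 0.11) and SRSF4 by 0.06 (SE 0.21). SRSF4 was the least even in NC, with 48.9, 73.4 and 38.1 FPKM, a spread of 18.1 FPKM (SD, n = 3) that its oeALKBH5 libraries, at 57.0, 56.6 and 48.1 FPKM, fell within. SRSF8, a retrogene copy of SRSF2, was not analysed here.

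SRSF10, which acts as a repressor when it is dephosphorylated, and SRSF11, an atypical member, were both below NC in all oeALKBH5 libraries. SRSF10 was listed at 85.6, 82.5 and 90.2 FPKM in NC and at 80.3, 74.0 and 64.8 FPKM in oeALKBH5 libraries, and SRSF11 at 122, 123 and 129.8 FPKM and at 116.5, 100.5 and 104 FPKM. Neither was called (differences -0.24, SE 0.10, and -0.22, SE 0.09, limma adjusted p = 0.227 and 0.177).

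Summed over members, HNRNP genes held 4713 ± 118 FPKM in NC against 3784 ± 189 FPKM in oeALKBH5 libraries, and SRSF genes 1318 ± 62.4 and 1143 ± 60.0 FPKM (mean ± SD, n = 3 each). The HNRNP sum was thus 0.908% of all FPKM in NC and 0.739% in oeALKBH5 libraries. Without HNRNPA2B1, the HNRNP sum was 4005 ± 113 and 3437 ± 145 FPKM, 85.8% of NC, close to the 86.7% of the SRSF sum. HNRNPA2B1 made up 15.1%, 14.5% and 15.5% of the HNRNP sum in NC and 9.98%, 8.74% and 8.69% in oeALKBH5 libraries. The share of HNRNPA1 was 19.3% ± 1.04 in NC and 19.9% ± 1.38 in oeALKBH5, and that of HNRNPC 7.21% ± 0.712 and 8.98% ± 0.692.

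The oeALKBH5 libraries were not alike in these genes. Of the 31 tested members, 18 had their lowest value in oeALKBH5 replicate 2, against 24.2% of the 5055 tested genes averaging at least 20 FPKM, and 21 had their highest oeALKBH5 value in replicate 1, against 34.9% of the same 5055 genes. Replicate 2 also had the lowest relative depth, 0.785, and the part of depth in the members' values was not tested. Without oeALKBH5 replicate 2, the median difference was -0.11 for HNRNP and -0.17 for SRSF genes, and 1 HNRNP gene, HNRNPA2B1, and no SRSF gene was called. Without oeALKBH5 replicate 1, the medians were -0.20 and -0.28, with 4 HNRNP genes called lower (HNRNPA2B1, HNRNPA3, HNRNPAB and HNRNPD) and 1 SRSF gene (SRSF1). HNRNPA2B1 was also the only member called without NC replicate 2, without NC replicate 3 or without oeALKBH5 replicate 3, while without NC replicate 1 HNRNPA1, HNRNPA3, HNRNPM and SRSF7 were called beside it.

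**Figure D3:**
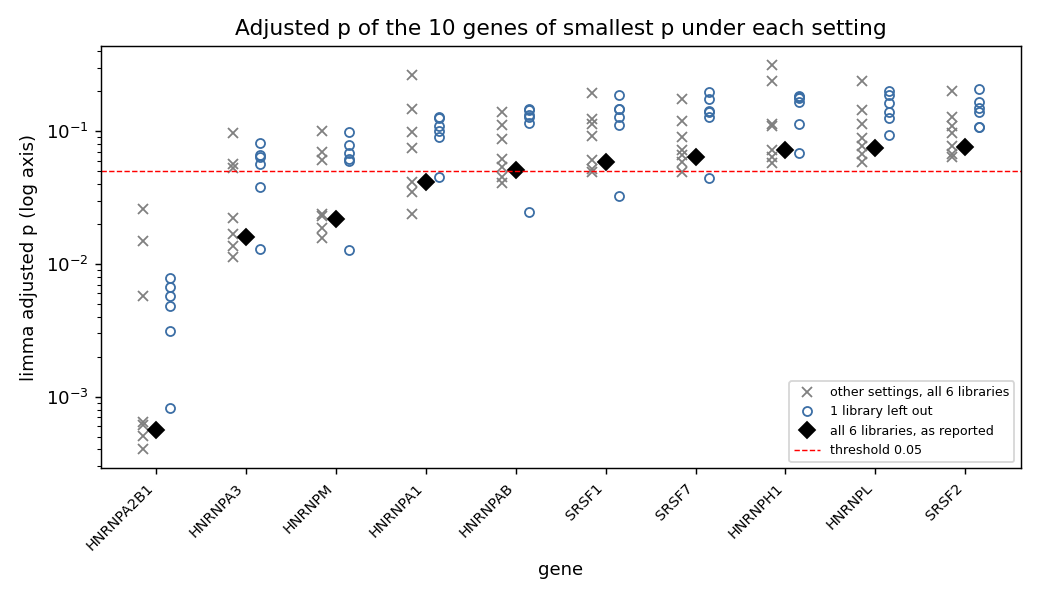
Adjusted p (log axis) of the 10 members with the smallest p, with all 6 libraries as reported (diamond), under other settings with all 6 libraries (crosses) and with 1 library left out (circles). All symbols of HNRNPA2B1 lie below the threshold of 0.05 (dashed line), the highest at 0.026, while each of the other 9 genes has symbols above it.

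Other genes of the splicing pathway were read from lists by role, beside which the background is again 2.43% called lower and 3.02% called higher. At an unadjusted p under 0.05 it is 10.3% lower and 11.6% higher, and 16.8% and 12.3% over genes of at least 20 FPKM. Of 18 tested hnRNP-like relatives without the HNRNP symbol, limma called none, and the median difference was -0.05. At an unadjusted p under 0.05, 4 of the 18 were lower and 1 was higher. The polypyrimidine tract binding protein PTBP1, from 134 ± 5.86 to 103 ± 12.9 FPKM, and EWSR1, from 128 ± 4.02 to 104.5 ± 4.67 FPKM, had the smallest p (limma adjusted p = 0.0752 and 0.0749). Of 20 SR-like and SR-related regulators, 5 were lower and 1 higher at an unadjusted p under 0.05. Limma called 1, TRA2B, a partner of SR proteins at exonic enhancers, which was lower. TRA2B was listed at 155, 173 and 163 FPKM in NC and at 133, 128 and 121 FPKM in oeALKBH5 libraries, with no overlap (difference -0.36, SE 0.08, limma adjusted p = 0.039). The call did not survive any of the 6 fits with 1 library left out, where adjusted p ran from 0.0636 to 0.133.

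Phosphorylation by kinases regulates where SR proteins are in the cell and what they bind. Of 15 tested kinases, phosphatases and importins of SR proteins, 2 were lower and 2 higher at an unadjusted p under 0.05. Limma called 1 of them, which rose. CLK3, a nuclear kinase of SR proteins, was listed at 33.8, 34.6 and 46.5 FPKM in NC and at 68.1, 54.0 and 65.0 FPKM in oeALKBH5 libraries (difference 0.70, SE 0.15, limma adjusted p = 0.0355). It was called without NC replicate 3 (adjusted p = 0.0401) and was not called in the 5 other fits of this kind (adjusted p up to 0.114). Its relative CLK1 was listed at 42.0 ± 4.53 FPKM in NC against 57.0 ± 4.04 FPKM in oeALKBH5 libraries and was not called (limma adjusted p = 0.0741).

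In the core spliceosome, 2 of 8 Sm proteins, which form the ring around spliceosomal RNAs, were called lower. SNRPF was listed at 57.6 ± 6.93 FPKM in NC against 38.2 ± 3.67 FPKM in oeALKBH5 libraries (limma adjusted p = 0.04), and SNRPD1 at 55.5 ± 5.74 and 38.3 ± 3.93 FPKM (0.0491). All 8 Sm proteins had negative differences, against 47.7% of all tested genes and 54.2% of those of at least 20 FPKM. Their median was -0.28, and 4 were lower and 0 higher at an unadjusted p under 0.05. Of the 6 fits with 1 library left out, SNRPF was called in 1 (adjusted p up to 0.152) and SNRPD1 in none (up to 0.172). Of 20 proteins of the U1 and U2 particles and U2AF, 17 had negative differences (median -0.21), but the 1 that was called rose: SF3B6, which sits at the branch point, from 177, 185 and 152 FPKM in NC to 208, 231 and 248 FPKM in oeALKBH5 libraries (limma adjusted p = 0.0473), a call lost in all 6 fits with 1 library left out (up to 0.155). At an unadjusted p under 0.05, 6 of these 20 U1, U2 and U2AF proteins were lower and 1 higher. None of 24 tri-snRNP and catalytic core proteins was called (median -0.16), and 4 were lower and 1 higher at an unadjusted p under 0.05. None of 13 nonsense-mediated decay factors was called, nor did any have an unadjusted p under 0.05 (median 0.06). Of 20 further sequence-specific regulators, 2 were lower and 1 higher at an unadjusted p under 0.05. Only NOVA1, known from neurons, was called, rising from 12.6 ± 2.94 to 28.6 ± 10.1 FPKM (limma adjusted p = 0.0467). This call held in 1 of 6 fits with 1 library left out (adjusted p up to 0.157).

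**Figure D4:**
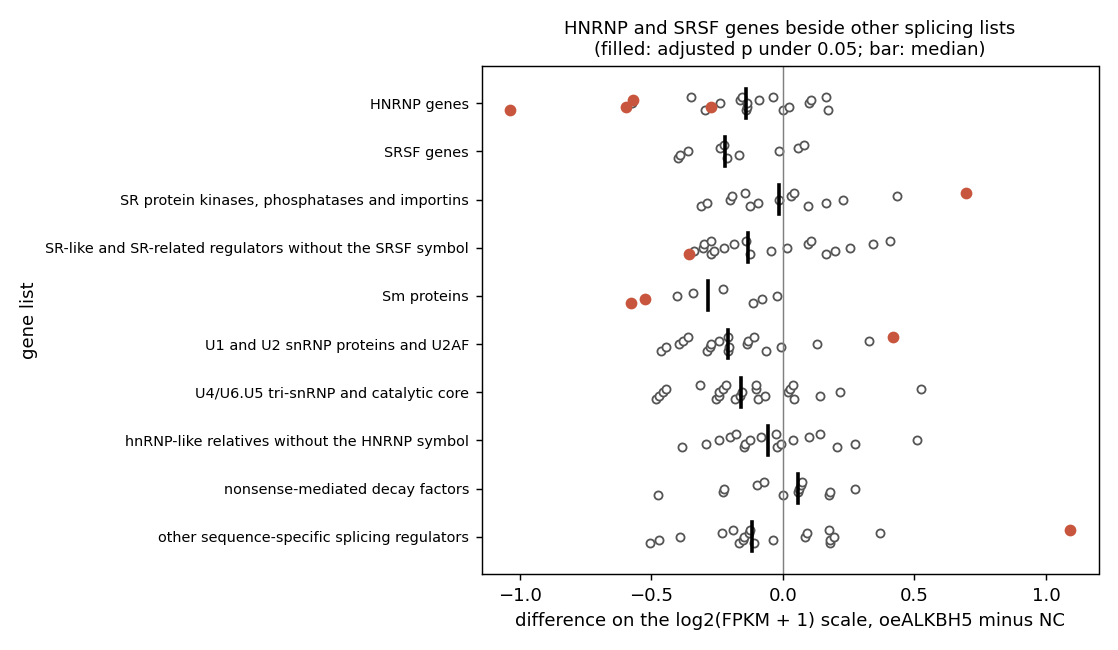
Difference between oeALKBH5 and NC on the log2(FPKM + 1) scale for each tested HNRNP and SRSF gene and for the genes of 8 other splicing lists, 1 point per gene (filled where the adjusted p was under 0.05, offset vertically for visibility) with the median of each list as a bar. The HNRNP and SRSF medians, -0.14 and -0.22, lie within the range of the other lists, from -0.28 for Sm proteins to 0.06 for decay factors, and HNRNPA2B1 lies lowest of all points.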

How the data were processed

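Input RNA of 3 NC and 3 oeALKBH5 libraries was analysed, 6 of the 12 samples of the series. The values were deposited by the authors as 1 table, whose header names no unit. That they are FPKM follows from the values and from Cuffdiff and Cufflinks, named with cutadapt 1.9.3, HISAT2 2.0.4 and the build hg19 in the submitters' processing notes, without the role of each. Libraries were grouped by the sample titles. Symbols came from a gene name table (19434 of 20308 identifiers matched) and biotypes from RefSeq.

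Genes averaging at least 0.5 FPKM were fitted on the log2(FPKM + 1) scale by limma 3.58.1 (R 4.3.3, intensity trend), without a block, with Benjamini-Hochberg adjustment over all tested genes and a threshold of 0.05. The exact tests were two-sided permutations of 6 libraries. The fit was also run on simulated data with independent noise for each gene and no shift of a whole library. The outcome is not used here. The members and gene lists were chosen with earlier results of these data known. Every member could be named, and up to 4 genes of smallest p per splicing list. CBX3, the other neighbours, the readthrough genes and the 5 ratios were chosen after their values were seen. The alternatives were a pseudocount of 0.1, no filter, a filter at 5 FPKM, quantile and median scaling, no trend, a replicate block and leaving out each library. Tables and plots were made in Python 3.11.15 (matplotlib 3.10.9, pandas 2.3.3, scipy 1.17.1). One further luminal marker is not reported here. The m6A peak lists were not analysed here, since tying peaks to genes needs an annotation of hg19.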

Additional observations from a re-analysis of the deposited data

How the results depend on the processing

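HNRNPA2B1 was called lower in all 13 alternatives (adjusted p from 4.02e-04 to 0.026). No other member was called in all of them. The number of HNRNP genes called lower, 4 as reported, was 1 (HNRNPA2B1) without the filter, 1 without the trend and 1 with the replicate block. It was 5, with HNRNPAB added, with the filter at 5 FPKM and after median scaling. After quantile scaling it was 3, as HNRNPA1 was not called (difference -0.18, limma adjusted p = 0.148). This number ran from 1 to 4 when 1 library was left out. The number of SRSF genes called lower, 0 as reported, was 2 (SRSF1 and SRSF7, each with adjusted p = 0.0495) after median scaling, and ran from 0 to 1 when 1 library was left out. No HNRNP or SRSF gene was called higher in any alternative. Over all tested genes, 385 were called higher and 310 lower. These became 198 and 72 without the trend, 203 and 141 with the replicate block, and 163 lower without the filter. Leaving out 1 library gave from 138 to 210 higher and from 68 to 188 lower. The replicate block is only an alternative, since same-numbered libraries of the groups did not deviate together (correlations of -0.05, -0.05 and 0.05 for numbers 1, 2 and 3) and did not all correlate best with their own number. Without the filter, 15776 genes were tested. The cause of the shifts in the counts was not tested. ALKBH5 stayed uncalled in all 13, with differences from 0.25 to 0.34 when 1 library was left out. Since read counts were not used here, the depth behind each value is unknown.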
